A study of Mus musculus with 28 samples.

Results

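Cultures of O9-1 cells, a mouse line from the cranial neural crest, were compared between the proliferating state and chondrocyte conditions at 21% O2 and at 0.5% O2. The genes whose change between those states depended on oxygen are described here. A change between states is a difference between separate libraries. The members are the 14 libraries of 4 groups out of the 28 libraries of the series. Proliferating cultures (n = 4 libraries at 21% O2 and n = 3 at 0.5% O2) grew in medium conditioned by STO feeder cells with 25 ng/ml bFGF and 5 ng/ml LIF. Chondrocyte cultures (n = 4 and n = 3 in the same order) spent 3 days in osteogenic medium and then 7 days as micromasses on matrigel in chondrogenic medium. That medium held 50 ng/ml BMP-2, 10 ng/ml TGF-beta3 and 0.1 µM dexamethasone, so the states compared differ in medium, culture form and time as well as in cell state. All groups are the same cell line, no genotype differs between them, and the labels do not say whether replicates came from separate cultures, so p-values measure the spread between these libraries.

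Cartilage forms where mesenchymal cells condense, switch on the transcription factor Sox9 with its partners Sox5 and Sox6, and secrete a matrix of type II collagen and aggrecan. Cartilage has no blood vessels and its cells live at low oxygen. When oxygen falls, hydroxylases stop marking the HIF alpha proteins for degradation, and HIF then raises genes of glucose uptake, glycolysis, pH control and vessel growth.

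The quantity followed is the interaction, which is the log2 change from proliferating to chondrocyte cultures at 0.5% O2 minus the same change at 21% O2. A positive value means a higher chondrocyte-to-proliferating ratio at 0.5% O2. By its arithmetic it is also the oxygen difference in chondrocyte cultures minus the oxygen difference in proliferating cultures, where an oxygen difference is the log2 level at 0.5% O2 minus that at 21% O2. Calls rest on edgeR's quasi-likelihood test with Benjamini-Hochberg adjustment over the 15310 genes tested, at an adjusted p under 0.05. A change counted as present when the gene was called with a log2 size of at least 1. Levels are counts per 1e+06 (CPM) scaled for library composition, standard errors (SE) are of log2 differences, and adjusted p-values come from that edgeR fit unless another fit is named.

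Library totals lay between 23.89 and 64.69 M counts (M is 1e+06), and each of the 14 libraries lay nearest to its own group. Mitochondrial ribosomal RNA took 0.0252 to 0.0268% of counts in proliferating cultures at 21% O2 and 0.0817 to 0.0889% at 0.5% O2. In chondrocyte cultures that share was 0.0383 to 0.0525% at 21% O2 and 0.0496 to 0.0689% at 0.5% O2, and its part in the results was not tested. Among the 4 proliferating libraries at 21% O2, replicate 4 lay furthest from the others. Without it, 6929 genes were called in the interaction against 6654 with it. Its root mean square log2 distance from the mean of the others was 0.303. Chondrocyte libraries lay about as far from theirs, with 0.316 and 0.312 for replicates 1 and 4 at 21% O2. Replicate 1 at 0.5% O2 had 0.302. The summed level of the 19 cartilage matrix genes listed was 9612 to 18370.0 CPM in chondrocyte cultures at 21% O2 and 8083 to 8498 CPM at 0.5% O2, against 24.2 to 75.8 CPM in proliferating cultures. The 16 osteoblast genes listed, which include those of type I collagen, summed higher in the same chondrocyte cultures, to 76160.0 to 90500.0 CPM at 21% O2 and 86330.0 to 100500.0 CPM at 0.5% O2, against 6615 to 9072 CPM in proliferating cultures. The listed cartilage genes Matn1, Chad, Cnmd, Snorc, Ucma and Epyc nonetheless stayed at a group mean of at most 0.0821 CPM everywhere. Among neural crest markers, Sox10 and Foxd3 had 0 counts in all 14 libraries, while Twist1 reached 103, 103, 94.7 and 79.3 CPM in the proliferating libraries at 21% O2.

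The chondrocyte change of a large share of the genes tested depended on oxygen. The interaction was called for 3307 genes as higher (21.6%) and 3347 as lower (21.9%), and for 2153 genes (14.1%) with a log2 size of at least 1, of which 624 were higher and 1529 lower. The change itself was called at 21% O2 for 5540 genes upward (36.2%) and 5736 downward (37.5%), and at 0.5% O2 for 5143 upward (33.6%) and 5078 downward (33.2%). With the size limit, the change was present for 5525 genes (36.1%) at 21% O2 and 4878 (31.9%) at 0.5% O2. Over all genes tested the median interaction was -0.03.

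The 2153 genes were sorted by what became of their change. A change present at 21% O2 and no longer present at 0.5% O2 was lost by 670 genes, of which 472 were rises and 198 falls. The opposite, a change gained at 0.5% O2, was found for 463 genes, with 133 rises and 330 falls. The direction reversed for 74 genes, 68 from a rise to a fall and 6 from a fall to a rise. The same direction was kept with a smaller size by 365 genes (322 rises and 43 falls) and with a larger size by 250 genes (69 rises and 181 falls). The other 331 genes fell in none of these classes. Of the 2153 genes, 63 had a group with 0 counts, where the fitted size depends on the small count the fit adds.

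**Figure D1:**
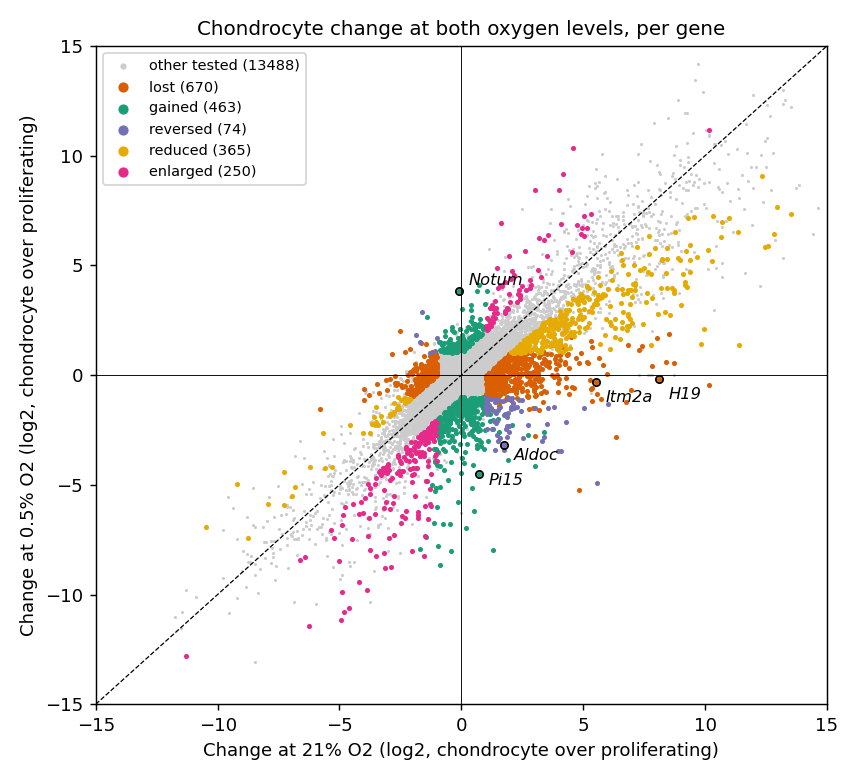
Each point is 1 of the 15310 genes tested, with its log2 change from proliferating to chondrocyte cultures at 21% O2 on the x axis and at 0.5% O2 on the y axis; colours mark the 670 lost, 463 gained, 74 reversed, 365 reduced and 250 enlarged changes, grey the other genes, and the dashed line equal change. H19 and Itm2a lie far to the right near 0 on the y axis, Notum lies above 0 on the x axis, and 7 genes lie outside the axis limits of 15.

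Of the 2153 genes, 1276 (59.3%) differed between oxygen levels in the proliferating cultures only, 273 (12.7%) in the chondrocyte cultures only, 205 (9.52%) in both and 399 (18.5%) in neither. Over all genes, oxygen differences of at least 1 were called in proliferating cultures for 2742 genes (17.9%) and in chondrocyte cultures for 1039 genes (6.79%). Without the size limit, calls in proliferating cultures were 4396 higher (28.7%) and 4371 lower (28.5%) at 0.5% O2, and in chondrocyte cultures 1815 higher (11.9%) and 2138 lower (14%). Of the 472 lost rises, 268 (56.8%) had such a difference in proliferating cultures only, 59 (12.5%) in chondrocyte cultures only, 63 (13.3%) in both and 82 (17.4%) in neither. In 329 of the 472 the proliferating cultures at 0.5% O2 stood higher, and in 89 the chondrocyte cultures at 0.5% O2 stood lower. Of the 133 gained rises, 107 (80.5%) differed in proliferating cultures only, and in 108 the level there was lower at 0.5% O2. The enlarged falls were spread more evenly, with 52 of 181 genes differing in proliferating cultures only and 49 in chondrocyte cultures only. These shares describe the classes and carry no test, since the classes were made from the same fit.

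**Figure D2:**
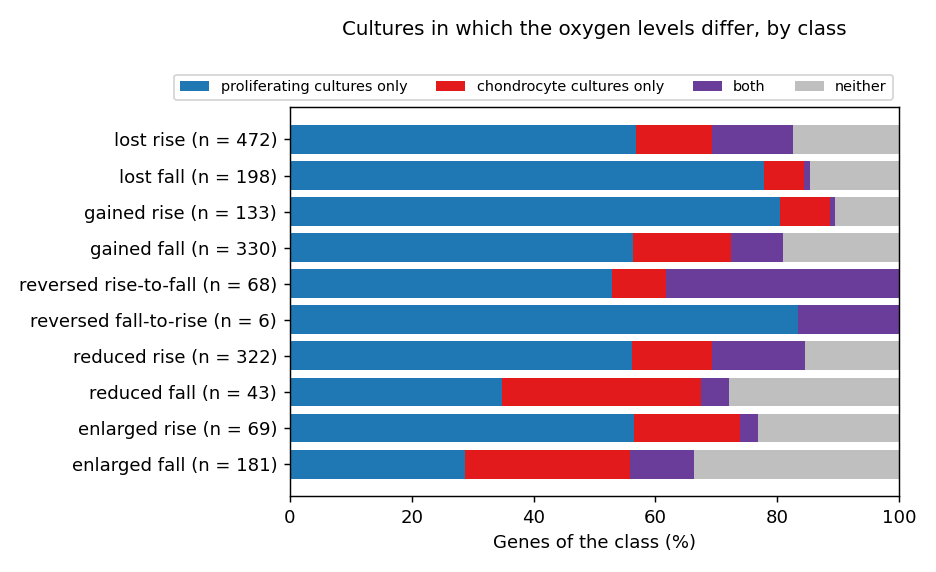
Horizontal bars give, for each class of oxygen-dependent gene, the percentage of its genes with an oxygen difference (called, log2 size of at least 1) in proliferating cultures only, chondrocyte cultures only, both or neither. The proliferating-only part is 77.8% of the 198 lost falls and 80.5% of the 133 gained rises, and 28.7% of the 181 enlarged falls.

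H19, an imprinted long noncoding RNA gene on chromosome 7 (142575529 to 142578143, minus strand, mm10), lost its rise. Its levels were 3.17, 2.96, 3.47 and 2.28 CPM in the proliferating libraries at 21% O2 and 707, 801, 922 and 852 CPM in the chondrocyte libraries. At 0.5% O2 they were 30.4, 31.4 and 32.7 CPM in proliferating and 36.9, 20.6 and 25.6 CPM in chondrocyte libraries. Chondrocyte cultures at 21% O2 stood far above every other library, and at 0.5% O2 the states overlapped. The log2 change was 8.10 at 21% O2 and -0.18 at 0.5% O2, an interaction of -8.28 (SE 0.26, adjusted p = 1.69e-10). Both cultures contributed, since the oxygen difference was 3.40 in proliferating (adjusted p = 1.98e-09) and -4.88 in chondrocyte cultures (adjusted p = 7.31e-10).

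Notum, which encodes a secreted enzyme that inactivates Wnt proteins by removing their lipid, gained a rise. The gene lies on chromosome 11 (120653788 to 120661175, minus strand, mm10). Its levels were 4.44, 4.43, 4.09 and 6.13 CPM in proliferating and 6.86, 4.12, 3.48 and 3.23 CPM in chondrocyte libraries at 21% O2. At 0.5% O2 they were 3.22, 3.48 and 1.99 CPM in proliferating and 29.9, 46.2 and 46.7 CPM in chondrocyte libraries. Only the 3 chondrocyte libraries at 0.5% O2 stood apart from the other 11. The change was -0.09 at 21% O2 and 3.82 at 0.5% O2, with an interaction of 3.91 (SE 0.38, adjusted p = 1.56e-06). In contrast to most gained rises, the oxygen difference lay mainly in chondrocyte cultures, at 3.20 against -0.71 in proliferating cultures.

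The other lost rises that the naming rule picked, by size among genes counted in every group, were Mgarp and Itm2a. Mgarp encodes a mitochondrial protein, and Itm2a a membrane protein expressed during chondrogenesis. Itm2a read 3.97, 4.099, 4.197 and 3.12 CPM in proliferating and 152, 182, 182 and 191 CPM in chondrocyte libraries at 21% O2, and 29.1, 31.5 and 34.6 then 23.8, 24.8 and 28.2 CPM at 0.5% O2. As for H19, its low-oxygen libraries all lay between the high and the low group at 21% O2. Its change was 5.51 at 21% O2 and -0.31 at 0.5% O2 (interaction -5.82, SE 0.15, adjusted p = 8.87e-15). Mgarp differed in form, since all its low-oxygen libraries were the higher ones. It read 0.25, 0.2596, 0.172 and 0.544 and 7.67, 13.9, 11.3 and 15.2 CPM at 21% O2, and 78.96, 73.9 and 90.2 and 51.9, 48.5 and 59.3 CPM at 0.5% O2, proliferating first. Its interaction was -5.95 (SE 0.35, adjusted p = 1.62e-08).

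The 198 lost falls had a median interaction of 1.38, against -1.93 for the 472 lost rises. The rule picked S100a7a, Dusp9 and Clca3a1. For S100a7a, an S100 family calcium-binding protein gene, levels were 28.2, 28.9, 30 and 14.8 then 2.15, 1.46, 1.06 and 2.69 CPM at 21% O2, and 32.1, 29.7 and 27.6 then 29.99, 7.298 and 10.7 CPM at 0.5% O2, proliferating first. The chondrocyte libraries at 0.5% O2 were uneven, with replicate 1 as high as the proliferating libraries. The interaction was 2.89 (SE 0.66, adjusted p = 0.00436). Dusp9, a phosphatase of MAP kinases, read 19.1, 20.6, 19.2 and 15.8 then 4.097, 1.71, 2.38 and 1.42 CPM at 21% O2 and 7.27, 8.61 and 6.28 then 4.897, 7.34 and 7.13 CPM at 0.5% O2. Its states overlapped at 0.5% O2 and were apart at 21% O2 (interaction 2.74, SE 0.36, adjusted p = 1.81e-05). Clca3a1, of the chloride channel accessory family, had an interaction of 2.37 (adjusted p = 6.32e-05) from changes of -2.74 and -0.37.

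After Notum, the gained rises picked were those of Glipr1, which encodes a cysteine-rich secretory family protein, and Ufsp1, of the UFM1 protease family. Glipr1 read 2.5, 2.62, 2.79 and 2.83 CPM in proliferating and 5.59, 4.201, 3.82 and 3.77 CPM in chondrocyte libraries at 21% O2. At 0.5% O2 it read 1.201, 1.84 and 1.41 and then 22.3, 28.9 and 24.8 CPM. Its chondrocyte libraries at 0.5% O2 all lay above the other 11 libraries. The changes were 0.70 and 4.10 (interaction 3.39, SE 0.25, adjusted p = 1.12e-08). For Ufsp1 the chondrocyte levels did not differ between oxygen levels by the test (oxygen difference 0.36, adjusted p = 0.389), and the proliferating level was lower at 0.5% O2 (-2.08, adjusted p = 1.83e-05). Its interaction was 2.45 (adjusted p = 1.50e-04).

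Gained falls led with Pi15, a secreted peptidase inhibitor gene, Krt19, an epithelial keratin gene, and Sfrp1, whose product is a secreted Wnt antagonist. Pi15 read 5.81, 5.29, 4.71 and 6.56 and 8.097, 11.1, 9.23 and 8.04 CPM at 21% O2, and 8.404, 10.2 and 9.49 and 0.338, 0.581 and 0.312 CPM at 0.5% O2, proliferating first. Sfrp1 read 10.7, 8.87, 10.01 and 9.499 and 13.9, 21.8, 23.3 and 16.1 CPM at 21% O2, and 12.6, 14.01 and 10.97 and 1.01, 0.788 and 1.8 CPM at 0.5% O2. In both genes the 3 chondrocyte libraries at 0.5% O2 were the lowest of the 14. The interaction was -5.24 (SE 0.29, adjusted p = 6.62e-10) for Pi15 and -4.30 (SE 0.31, adjusted p = 1.45e-08) for Sfrp1. Krt19 came to the same class by another route, with 301, 304 and 311 CPM in proliferating libraries at 0.5% O2 against 3.64, 3.21, 4.51 and 4.13 CPM at 21% O2. Its chondrocyte libraries read 6.67, 5.102, 4.24 and 5.04 CPM at 21% O2 and 29.5, 8.92 and 15.2 CPM at 0.5% O2, and its interaction was -4.57 (SE 0.47, adjusted p = 1.36e-05).

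Reversals from a rise to a fall were led by Smtnl2, a smoothelin-like gene, Aldoc, which encodes the glycolytic enzyme aldolase C, and Slc2a3, which encodes the glucose transporter GLUT3. Aldoc read 3.75, 3.29, 3.2 and 7.72 CPM in proliferating and 7.15, 20.4, 18.1 and 12.5 CPM in chondrocyte libraries at 21% O2. At 0.5% O2 the order turned, with 224, 224 and 251 CPM in proliferating and 27.4, 22.3 and 27.5 CPM in chondrocyte libraries. The changes were 1.74 and -3.18 (interaction -4.91, SE 0.49, adjusted p = 1.21e-05). Slc2a3 read 1.39, 1.41, 1.27 and 1.67 and 2.99, 6.73, 3.33 and 8.35 CPM at 21% O2, and 44.2, 49.6 and 56.2 and 9.69, 6.63 and 4.64 CPM at 0.5% O2. Its changes were 1.89 and -2.84 (interaction -4.73, SE 0.48, adjusted p = 4.98e-06). For both, the proliferating libraries at 0.5% O2 were the highest by a wide margin, and the oxygen difference in chondrocyte cultures missed the threshold (adjusted p = 0.091 and 0.416). Smtnl2 rose by 3.50 at 21% O2 and fell by 2.21 at 0.5% O2 (interaction -5.72, adjusted p = 1.27e-08).

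Only 6 genes turned from a fall to a rise, and 3 of them met the rule for naming. Rrp12, a ribosome assembly gene, read 82.1, 87.2, 87.05 and 59.3 and 47.6, 41.2, 34.1 and 34.5 CPM at 21% O2, and 10.6, 9.95 and 6.896 and 27.4, 33.4 and 28.9 CPM at 0.5% O2, proliferating first. The proliferating libraries were the highest at 21% O2 and the lowest at 0.5% O2. Its interaction was 2.71 (SE 0.24, adjusted p = 7.73e-07). Lbhd1 had changes of -1.08 and 1.09 (interaction 2.17, adjusted p = 2.14e-07), and the noncoding gene Dancr had changes of -1.30 and 1.02 (interaction 2.32, adjusted p = 8.29e-04). Leaving out a library gave between 2 and 8 genes in this class.

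**Figure D3:**
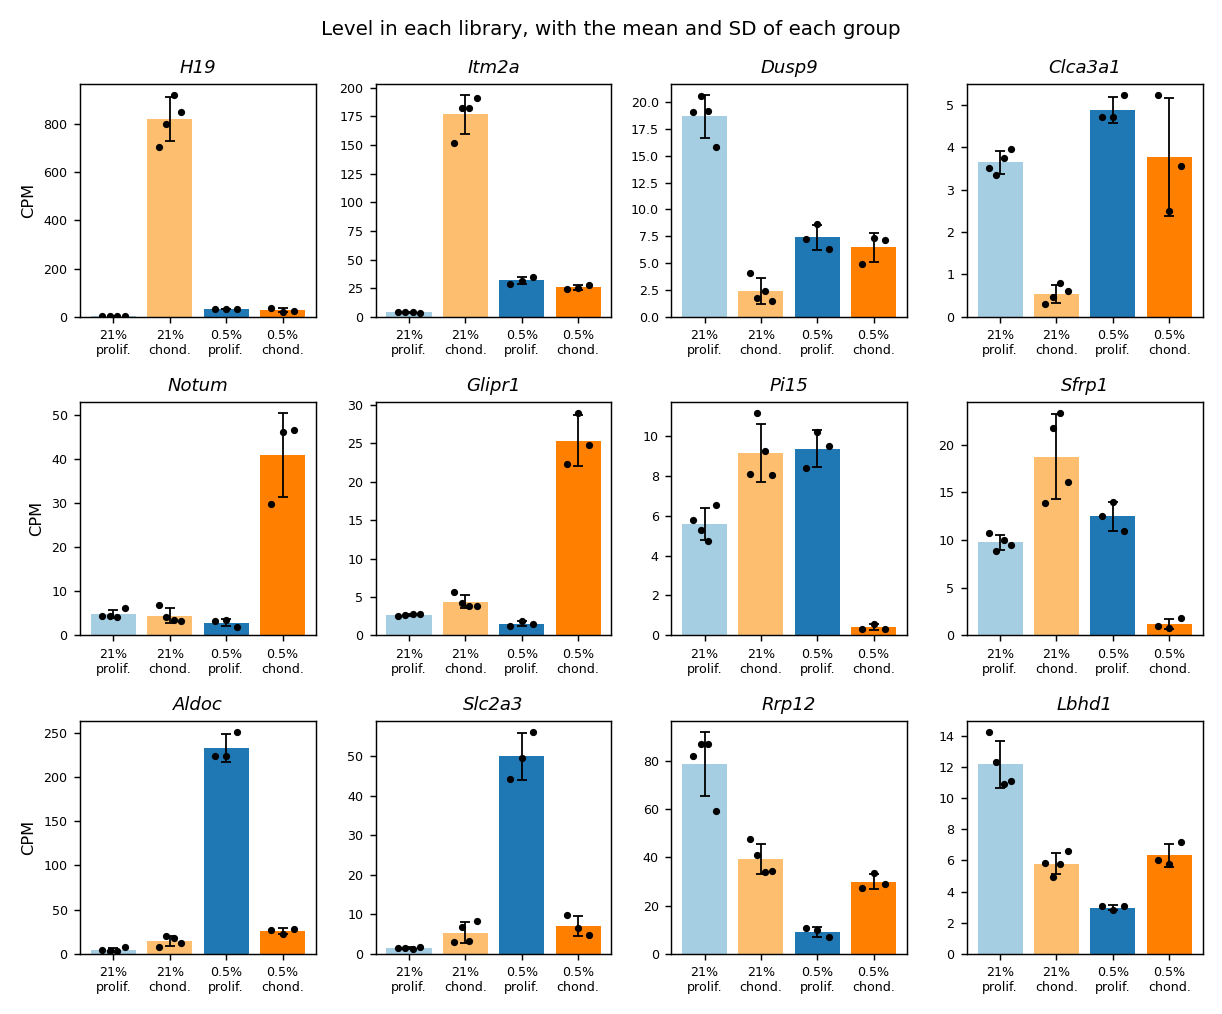
Bars give the mean CPM of each group with its SD, and points the single libraries (n = 4 at 21% O2, n = 3 at 0.5% O2), for 12 genes that lost, gained or reversed their change; each panel has its own axis from 0. H19 stands at 820.4 ± 90.7 CPM in chondrocyte cultures at 21% O2 alone and Notum at 40.9 ± 9.52 CPM in those at 0.5% O2 alone, while Aldoc stands highest in proliferating cultures at 0.5% O2.

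Changes that kept their direction but shrank included Mest, an imprinted gene of the hydrolase fold family, and Col11a2, which encodes a chain of the cartilage collagen XI. Mest read 1.03, 0.97, 0.8601 and 0.979 and 51.5, 98.4, 110.1 and 109.8 CPM at 21% O2, and 0.412, 0.689 and 0.794 and 2.23, 4.06 and 2.15 CPM at 0.5% O2, proliferating first. The proliferating libraries were low at both levels, and the chondrocyte libraries were apart (interaction -4.44, SE 0.68, adjusted p = 1.71e-04). Among shrinking falls, Cldn1, a tight junction gene, fell by 4.59 at 21% O2 and by 2.26 at 0.5% O2 (interaction 2.33, adjusted p = 5.54e-04), and Ptchd4, a patched-domain gene, had an interaction of 1.58 (adjusted p = 0.00204).

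Changes that grew included the rises of Tnfrsf21, the gene of death receptor 6, and Adra2a, the gene of an alpha-2 adrenergic receptor. Tnfrsf21 read 37.9, 25.1, 30.7 and 19.6 CPM in chondrocyte libraries at 21% O2 and 23.7, 34.4 and 30.1 CPM at 0.5% O2, which overlapped. Its proliferating libraries read 7.97, 8.54, 6.503 and 6.16 CPM at 21% O2 and 0.617, 0.842 and 0.578 CPM at 0.5% O2, which did not. The interaction was 3.49 (SE 0.35, adjusted p = 1.44e-06), and that of Adra2a was 3.07 (SE 0.37, adjusted p = 1.20e-05). Among growing falls, Abca1, the cholesterol efflux transporter gene, read 64.4, 59.8, 61.3 and 65.2 and 23.02, 30.7, 23.3 and 30.2 CPM at 21% O2, and 246, 244 and 266 and 14.4, 10.3 and 8.96 CPM at 0.5% O2. Its proliferating libraries were higher and its chondrocyte libraries lower at 0.5% O2 (interaction -3.26, SE 0.19, adjusted p = 8.54e-09). Vill, a villin-like gene, moved in the same manner (interaction -3.41, adjusted p = 7.69e-07).

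Genes of the hypoxia response mostly moved one way. All 34 listed genes were tested, and the interaction was called lower for 28, higher for 0 and not called for 6, beside 21.9% and 21.6% of all genes tested. The median interaction was -1.55 against -0.03 for all genes. At 21% O2 the chondrocyte change was a called rise for 25 of the 34 and a called fall for 3, beside 36.2% and 37.5% of all genes. At 0.5% O2 it was a called rise for 6 and a called fall for 21, beside 33.6% and 33.2%. Between oxygen levels, 31 of 34 were called higher at 0.5% O2 in proliferating cultures (median oxygen difference 2.67) and 30 of 34 in chondrocyte cultures (median 1.24). Over all genes 28.7% and 11.9% were called higher. None of the 34 was called lower. Summed over the list, levels were 4896 to 5255 CPM in proliferating and 6025 to 8053 CPM in chondrocyte libraries at 21% O2, and 23850.0 to 25790.0 CPM and 17360.0 to 18750.0 CPM at 0.5% O2.

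Among genes of uptake and pH control, Slc16a3, which encodes the lactate exporter MCT4, had the lowest interaction of the list. It read 0.0278, 0, 0.206 and 0 and 0.683, 0.514, 0.492 and 0.539 CPM at 21% O2, and 7.89, 8.23 and 7.798 and 2.97, 3.23 and 2.28 CPM at 0.5% O2, proliferating first. The order of the states turned, with the highest libraries the proliferating ones at 0.5% O2 (interaction -5.05, SE 0.68, adjusted p = 1.05e-05). Car9, the carbonic anhydrase gene often used as a hypoxia marker, read 0.0833, 0.0546, 0 and 0 and 1.07, 2.06, 1.55 and 1.89 CPM at 21% O2, and 3.53, 4.25 and 5.23 and 5.44, 7.96 and 6.47 CPM at 0.5% O2. Its rise of 5.16 at 21% O2 was 0.61 at 0.5% O2 (interaction -4.55, SE 0.55, adjusted p = 3.25e-06).

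Adm, the adrenomedullin gene, read 6.31, 5.998, 5.02 and 7.25 and 9.53, 31.5, 32.2 and 27.2 CPM at 21% O2, and 205, 204 and 217 and 136, 42.01 and 48.3 CPM at 0.5% O2. Replicate 1 stood well above the other chondrocyte libraries at 0.5% O2. Its change turned from 2.02 to -1.46 (interaction -3.49, SE 0.67, adjusted p = 0.0016). Vegfa, the angiogenic growth factor gene, kept a called rise at both levels, 1.88 and 0.74 (interaction -1.14, SE 0.072, adjusted p = 2.46e-09). Its class, a lost rise, comes only from the size limit of 1. Its libraries read 237, 239.9, 233 and 243 CPM in chondrocyte cultures at 21% O2 and 481, 517 and 537 CPM at 0.5% O2, where it was highest. Egln3, an oxygen-sensing prolyl hydroxylase gene, had an interaction of -3.07 (adjusted p = 3.08e-06), Bnip3, a mitophagy gene, one of -2.74 (adjusted p = 7.27e-06), and Ndrg1, a stress-responsive gene, one of -3.10 (adjusted p = 1.41e-05).

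Among other glycolytic enzymes, Pgk1, a kinase that makes ATP, read 854, 898, 919.8 and 896 and 794, 987, 913 and 1144 CPM at 21% O2, and 5531, 5579 and 6060.2 and 3199, 2965 and 3177 CPM at 0.5% O2. The states overlapped at 21% O2 and were apart at 0.5% O2 (interaction -0.98, SE 0.13, adjusted p = 6.63e-06). Pdk1, the gene of a kinase that inhibits pyruvate dehydrogenase, had an interaction of -1.54 (adjusted p = 3.52e-06). Ldha, the lactate dehydrogenase gene, was higher at 0.5% O2 in both cultures, by 1.64 and 1.40, and its interaction of -0.23 was not called (adjusted p = 0.120), but it was without replicate 1 of the chondrocyte cultures at 21% O2 (0.0243). Gapdh had the highest value of the list, 2.43 (adjusted p = 0.139), and is uncertain. It has near-identical pseudogene copies, and its libraries scattered from 12.3 to 543 CPM, with 379, 34.2 and 543 CPM in chondrocyte libraries at 0.5% O2. Without replicate 2 of that group it was called at 2.97 (adjusted p = 0.0349), and without replicate 1 of the chondrocyte cultures at 21% O2 at 3.30 (adjusted p = 0.0497), which made 1 gene of the list called higher.

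**Figure D4:**
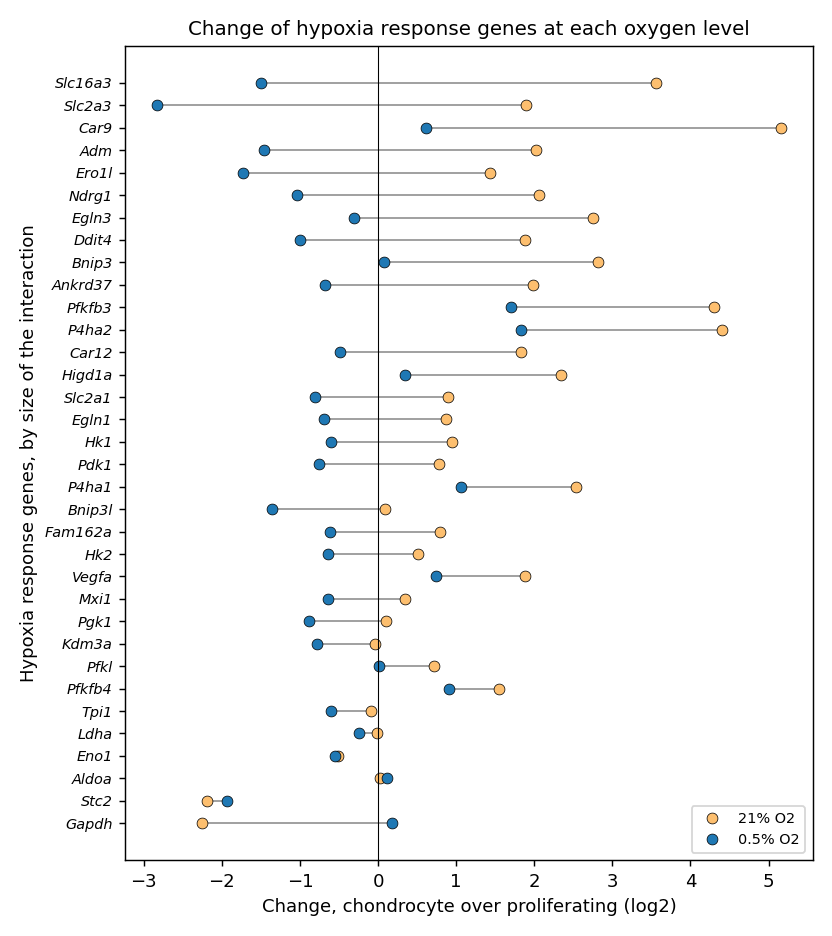
For each of the 34 hypoxia response genes, points give the log2 change from proliferating to chondrocyte cultures at 21% O2 (pale orange) and at 0.5% O2 (blue), joined by a line, in the order of the interaction from the lowest at the top. The change at 0.5% O2 lies to the left of that at 21% O2 for the 28 genes called lower, and Gapdh at the bottom is the widest exception and was not called.

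Promoter sequence is shown for the hypoxia genes above that changed most and had an entry in the RefSeq promoter table, to let their upstream DNA be read beside their levels. The 250 bases before each RefSeq start are given 5′ to 3′ on the gene's strand (plus in all), build GRCm38.p6. Capitals mark matches to ACGTG or GCGTG, the core of the HIF response element, on either strand, where the reverse strand reads CACGT or CACGC. A match can overlap the E-box CACGTG, although none of these windows holds one. For Slc16a3 the window is chr11:120948817-120949066, for Adm chr7:110627407-110627656, for Car9 chr4:43506776-43507025, and for Aldoc, at the first of its 2 listed starts, chr11:78322823-78323072.
Slc16a3: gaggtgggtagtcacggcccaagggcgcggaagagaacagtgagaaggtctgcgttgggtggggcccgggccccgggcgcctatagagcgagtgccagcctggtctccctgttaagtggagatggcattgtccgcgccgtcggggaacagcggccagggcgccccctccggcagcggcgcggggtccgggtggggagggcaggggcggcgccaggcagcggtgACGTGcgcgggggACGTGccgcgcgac
Adm: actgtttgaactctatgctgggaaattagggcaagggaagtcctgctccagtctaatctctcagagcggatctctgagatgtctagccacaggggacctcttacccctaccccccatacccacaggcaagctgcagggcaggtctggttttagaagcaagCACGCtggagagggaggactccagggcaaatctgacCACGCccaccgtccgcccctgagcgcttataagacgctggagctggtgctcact
Car9: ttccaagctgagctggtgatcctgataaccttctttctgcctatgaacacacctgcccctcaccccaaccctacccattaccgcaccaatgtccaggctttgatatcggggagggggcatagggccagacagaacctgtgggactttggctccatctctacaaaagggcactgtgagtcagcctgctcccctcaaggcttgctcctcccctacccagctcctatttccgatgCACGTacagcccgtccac
Aldoc: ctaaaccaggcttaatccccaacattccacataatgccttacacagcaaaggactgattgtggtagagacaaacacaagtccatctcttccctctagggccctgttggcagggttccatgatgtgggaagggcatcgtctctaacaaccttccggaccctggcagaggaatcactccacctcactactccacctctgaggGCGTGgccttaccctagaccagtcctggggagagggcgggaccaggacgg
Slc16a3 and Adm hold 2 matches each, and Car9 and Aldoc 1 each. Of the 34 hypoxia genes 30 matched the table by symbol, and 28 of those (93.3%) had a match in at least 1 window. Of the 10562 tested genes in the table, 6440 (61.0%) had one, and 38.6% of all 32851 windows did. Table entries cover 69.0% of the genes tested, so the classes were not compared by motif. H19, Notum, Slc2a3 and Ndrg1 are named without sequence.

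Cartilage matrix genes rose at both oxygen levels and most reached lower levels at 0.5% O2. Of the 13 listed genes tested, 13 were called as rising at 21% O2 and 10 at 0.5% O2, beside 36.2% and 33.6% of all genes. In chondrocyte cultures 11 were called lower at 0.5% O2 and 1 higher, beside 14% and 11.9% of all genes. The interaction was called lower for 3, Acan, Hapln1 and Col11a2, and higher for 0, beside 21.9% and 21.6% of all genes. The count of 3 moved with the method, to 1 in limma-voom and 10 in DESeq2, and to 1 without replicate 3 of the proliferating cultures at 0.5% O2. It was also 1 with at least 10 counts in every library, where Hapln1 and Col11a2 were not tested. On simulated data DESeq2 called unchanged genes beyond its nominal level. Those data held no gene near 0 in proliferating libraries alone, so they cannot decide between methods for such genes. Most listed genes other than the 3 called had next to no counts in proliferating libraries, so their interaction has a wide error. The oxygen difference in chondrocyte cultures is given for them instead. In bulk RNA, fewer chondrocytes and less RNA per chondrocyte cannot be told apart.

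Col2a1, the gene of the main cartilage collagen, read 1094, 5416, 6254 and 2141 CPM in chondrocyte libraries at 21% O2 and 203, 269.7 and 392 CPM at 0.5% O2. The groups did not overlap, although replicates 1 and 4 at 21% O2 stood well below replicates 2 and 3. Its oxygen difference was -3.69 (SE 0.58, adjusted p = 8.50e-04). Acan, the gene of aggrecan, had a measurable level in proliferating libraries. It read 21.1, 21.9, 21.6 and 24.6 and 1684, 2699, 2432 and 1511 CPM at 21% O2, and 69.9, 63.98 and 64.6 and 478, 719 and 766 CPM at 0.5% O2, proliferating first. Low oxygen went with a higher level in proliferating and a lower level in chondrocyte cultures. The oxygen levels were apart in both cultures (interaction -3.24, SE 0.29, adjusted p = 2.87e-06).

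Hapln1, whose product links aggrecan to hyaluronan, read 316, 901, 888 and 519.6 CPM at 21% O2 and 52.1, 64.8 and 103 CPM at 0.5% O2 in chondrocyte libraries, and at most 0.377 CPM in proliferating ones. The interaction was -5.30 (adjusted p = 0.0345). It missed the threshold in limma-voom (adjusted p = 0.264), in the fit of all 28 libraries (0.149), with no filter on low counts (0.0571) and without 1 of 8 libraries in turn (0.0512 to 0.0860). Col11a2 read 72.3, 354, 349.6 and 69.1 CPM at 21% O2 and 12.4, 16.4 and 26.7 CPM at 0.5% O2. Its interaction of -4.98 (adjusted p = 0.0245) likewise missed it in limma-voom (0.314) and without replicate 1 or 3 of the proliferating cultures at 0.5% O2 (0.0717 and 0.0702).

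Comp, of the cartilage oligomeric matrix protein, had an oxygen difference of -3.82 in chondrocyte cultures (adjusted p = 3.65e-04), and Col9a1, of collagen IX, one of -7.87 (adjusted p = 0.0152). The fall was not shared by all matrix genes. Col11a1, the other abundant collagen XI chain gene, read 4549, 6375, 6233 and 5761 CPM at 21% O2 and 5051, 4596 and 4705 CPM at 0.5% O2. These overlapped (oxygen difference -0.26, adjusted p = 0.548). Its interaction was -0.15 (adjusted p = 0.852), but without replicate 4 of the proliferating cultures at 21% O2, which read highest there, it was called at -0.71 (adjusted p = 0.00568). Fmod, the fibromodulin gene, was higher at 0.5% O2, by 0.39 (adjusted p = 0.00332), with 2273, 2823 and 2484 CPM against 1824, 2024, 1929.5 and 1915 CPM.

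**Figure D5:**
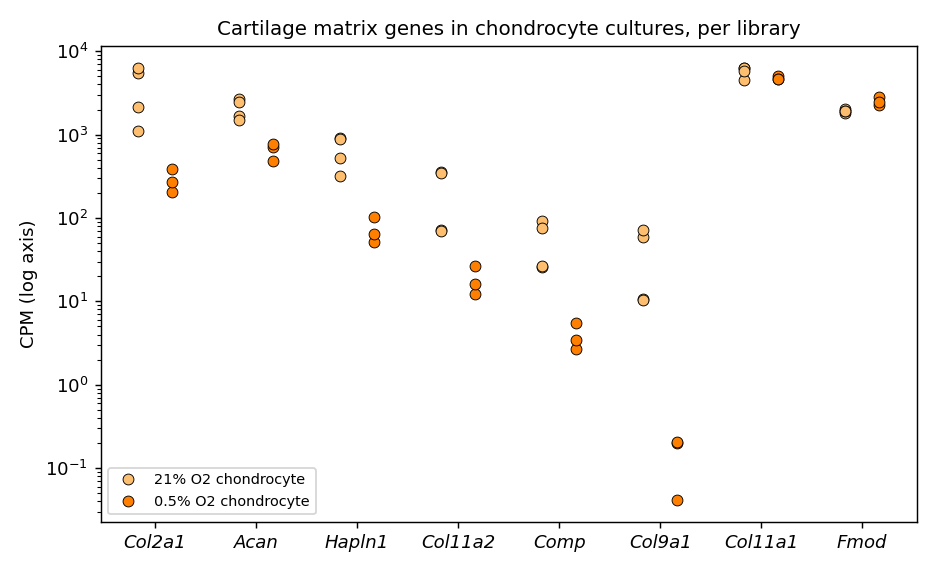
Points are single chondrocyte libraries at 21% O2 (pale orange, n = 4) and 0.5% O2 (orange, n = 3), with the level in CPM on a log axis, for 8 cartilage matrix genes. Col2a1, Acan, Hapln1, Col11a2, Comp and Col9a1 do not overlap between oxygen levels, Col11a1 does, and Fmod is higher at 0.5% O2.

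Among chondrogenic transcription factors, 4 of 12 were called lower at 0.5% O2 in chondrocyte cultures and 0 higher, beside 14% and 11.9% of all genes. All 12 were called as rising at 21% O2 and 9 at 0.5% O2, beside 36.2% and 33.6% of all genes. The interaction was called lower for 5 and higher for 0, beside 21.9% and 21.6% of all genes. Sox9 read 86.1, 92.2, 88.4 and 124 and 155, 199, 195 and 126 CPM at 21% O2, and 161, 162 and 152 and 202, 142 and 163 CPM at 0.5% O2, proliferating first. Chondrocyte levels overlapped, and proliferating levels were higher at 0.5% O2 (interaction -0.70, SE 0.24, adjusted p = 0.0334). That call missed the threshold without any 1 of 9 libraries (adjusted p = 0.0610 to 0.0857), in the fit of all 28 libraries (0.316) and with no filter on low counts (0.0888). Sox5 had an interaction of -1.28 (adjusted p = 0.00362). Sox6 was barely detected, with 1.301, 2.44, 3.22 and 1.001 CPM in chondrocyte libraries at 21% O2 and 0, 0.166 and 0.312 CPM at 0.5% O2, and at most 0.138 CPM in proliferating libraries. Its interaction was not called (adjusted p = 0.220). Among the 10 factors with counts in every group the highest value, 0.51 for Scx, a tendon regulator, was not called (adjusted p = 0.0509). Scx was called without replicate 1 of the chondrocyte cultures at 0.5% O2 (0.0236) or replicate 4 of those at 21% O2 (0.0293). It was also called without replicate 3 of the proliferating cultures at 21% O2 (0.0130), and in the fit of all 28 libraries (0.0414).

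Markers of hypertrophic chondrocytes, the enlarged cells that precede bone, gave 4 lower and 1 higher interaction calls among 11 genes tested, beside 21.9% and 21.6% of all genes. Col10a1, their collagen, read 234, 553, 479 and 326 CPM at 21% O2 and 88.8, 115 and 170.3 CPM at 0.5% O2 in chondrocyte libraries and near 0 in proliferating ones (oxygen difference -1.68, adjusted p = 0.00271). Mmp13, the collagenase of the growth plate, lost a small rise, with changes of 1.66 and -0.065 (interaction -1.72, adjusted p = 0.00738). Mef2c, a transcription factor of hypertrophy, kept a smaller one (interaction -1.21, adjusted p = 3.16e-06). Among the 8 members with counts in every group, Phospho1, a mineralisation phosphatase gene, had the lowest interaction, -4.30 (adjusted p = 1.28e-04). The highest of the 8 was 0.78 for Sp7, the osterix gene, not called (adjusted p = 0.651). In Phospho1 the oxygen difference lay in proliferating cultures, where all levels were under 1 CPM. Within chondrocyte cultures, 6 of the 11 hypertrophic markers were called lower at 0.5% O2 and 0 higher, beside 14% and 11.9% of all genes.

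Osteoblast markers gave 5 lower and 2 higher interaction calls among 14 tested, beside 21.9% and 21.6% of all genes. Runx2, the master regulator of bone, was called higher by 0.32 (adjusted p = 0.0144). Dlx5 had 0 counts in proliferating libraries at 21% O2, and read 45.01, 51.02, 56.2 and 38.1 CPM at 21% O2 and 8.41, 11.4 and 11.1 CPM at 0.5% O2 in chondrocyte libraries, which did not overlap (oxygen difference -2.21, adjusted p = 3.24e-07). Phex, a phosphate regulator, fell at both levels, and more at 0.5% O2 (interaction -1.39, adjusted p = 0.00128). Within chondrocyte cultures, 8 of the 14 osteoblast markers were called lower at 0.5% O2 and 2 higher, beside 14% and 11.9% of all genes.

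Enzymes that hydroxylate and cross-link collagen rose in chondrocyte cultures at both levels, all 20 of 20 listed genes by the test, beside 36.2% and 33.6% of all genes. The interaction was called lower for 12 and higher for 2 (median -0.75, all genes -0.03), beside 21.9% and 21.6% of all genes. Lox, a lysyl oxidase, read 54.5, 55.1, 55.1 and 61.6 and 4720.3, 5349.5, 5972 and 6358 CPM at 21% O2, and 634, 623 and 619 and 9397, 7536 and 7587 CPM at 0.5% O2, proliferating first. Levels at 0.5% O2 were the higher in both proliferating and chondrocyte cultures (interaction -2.92, SE 0.14, adjusted p = 1.28e-10). Plod2, a lysyl hydroxylase, read 21.8, 21.2, 22.9 and 22.2 and 622, 659.8, 660.5 and 526 CPM at 21% O2, and 305, 303 and 339 and 1296, 1529.7 and 1476 CPM at 0.5% O2. It followed the same order (interaction -2.63, SE 0.12, adjusted p = 5.48e-11). The collagen prolyl hydroxylase genes P4ha1 and P4ha2, which are also in the hypoxia list, had interactions of -1.48 and -2.58 (adjusted p = 3.43e-09 and 3.60e-12). P3h2, a prolyl 3-hydroxylase, had the highest, 1.35 (adjusted p = 0.0173), which missed the threshold in limma-voom (0.142) and with no filter on low counts (0.0503).

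Matrix proteases and their inhibitors gave 7 lower and 1 higher calls among 16 tested (median -0.49), beside 21.9% and 21.6% of all genes. The lowest was Adamts2, which trims procollagen ends, at -1.96 (adjusted p = 1.39e-05), and the one called higher was Mmp16, of a membrane-bound metalloprotease. The stromelysin gene Mmp10 had 2 counts in chondrocyte libraries at 21% O2 and 9 at 0.5% O2, and was not called (adjusted p = 0.327).

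Signalling lists moved in mixed directions. Targets and feedback genes of BMP and TGF-beta, the factors in the chondrogenic medium, gave 8 lower and 3 higher calls among 21 (median -0.52), beside 21.9% and 21.6% of all genes. The 8 became 5 in the fit of all 28 libraries. The 3 became 1 without any of 6 libraries, replicates 1 and 3 of the proliferating cultures at 0.5% O2, and at 21% O2 replicates 2 and 3 of the chondrocyte and 1 and 2 of the proliferating cultures. Id1, a direct BMP target, read 20, 20.7, 19.03 and 9.35 and 67.5, 65.2, 60.3 and 56.5 CPM at 21% O2, and 34.7, 32.03 and 28.6 and 44.6, 55.03 and 48.5 CPM at 0.5% O2, proliferating first. Its rise shrank from 1.84 to 0.63 (interaction -1.21, adjusted p = 0.00338), and that of the inhibitory Smad7 shrank too (-1.17, adjusted p = 2.22e-04). The BMP antagonist Noggin, Nog, had an interaction of -1.75 (adjusted p = 0.0195), lost in limma-voom (0.112), in the fit of all 28 libraries (0.585) and without replicate 2 of the proliferating cultures at 0.5% O2 (0.104). Against these, Atoh8, a transcription factor induced by BMP, rose more at 0.5% O2, by 7.33 against 5.33 (interaction 2.00, adjusted p = 0.00229). The lowest value, -2.50 for the BMP antagonist gene Chrdl1, was not called (adjusted p = 0.0917), but it was without replicate 1 of the chondrocyte cultures at 0.5% O2 (0.0487).

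Wnt inhibitors and feedback genes gave 3 higher calls, Notum, Tcf7 and Znrf3, and 2 lower, Sfrp1 and Dkk3, among 17 tested, beside 21.6% and 21.9% of all genes. Tcf7, a Wnt effector, had an interaction of 1.20 (adjusted p = 6.53e-05), not called in the fit of all 28 libraries (0.104), and the secreted Dkk3 one of -1.27 (adjusted p = 1.51e-04).

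Genes that respond to FGF and LIF, which only the proliferation medium contained, gave 8 lower and 0 higher calls among 20 (median -0.39), beside 21.9% and 21.6% of all genes. Egr1, an immediate early gene, fell only at 0.5% O2 by the size limit, with 34.8, 33.7, 31.8 and 31.5 and 23.5, 26.2, 25.4 and 26.3 CPM at 21% O2, and 21.7, 19.2 and 18.3 and 4.59, 5.06 and 5.54 CPM at 0.5% O2. The chondrocyte libraries at 0.5% O2 were the lowest (interaction -1.58, SE 0.13, adjusted p = 4.35e-08). Spry4, an FGF feedback inhibitor, fell further at 0.5% O2 (interaction -1.14, adjusted p = 2.02e-04), a call not made in the fit of all 28 libraries (0.0726). The receptor gene Fgfr3, with 2 counts in proliferating libraries at 21% O2, was not called (adjusted p = 0.299). Nor was the highest, 0.45 for the cyclin D1 gene Ccnd1 (adjusted p = 0.201), which was called without replicate 1 of the chondrocyte cultures at 21% O2 (0.0240).

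Glucocorticoid targets gave 7 lower and 2 higher calls among 14, beside 21.9% and 21.6% of all genes. Fkbp5 rose more at 0.5% O2 (interaction 1.03, adjusted p = 2.51e-04), while Tsc22d3 and the metallothionein Mt2 rose less (-1.13 and -2.33, adjusted p = 0.00165 and 0.00583). Within the chondrocyte cultures at 0.5% O2 replicate 1 was the highest for all 3, and Mt2 read 836, 428 and 386 CPM there. Lcn2, the lipocalin 2 gene, had 3 counts in proliferating libraries at 0.5% O2 and was not called (adjusted p = 0.271). The amino acid response driven by ATF4 gave 8 lower and 4 higher calls among 19 (median -0.25), beside 21.9% and 21.6% of all genes. Its lowest was Trib3, a pseudokinase gene, at -2.55 (adjusted p = 5.18e-05), and its highest, 0.76 for the arginine transporter gene Slc7a3, was not called (adjusted p = 0.258). Ddit3 had 0 counts in all 14 libraries.

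Most sterol and fatty acid synthesis genes fell further at 0.5% O2. All 23 listed genes were called as falling at 0.5% O2 and 22 at 21% O2, beside 33.2% and 37.5% of all genes. The interaction was called lower for 18 and higher for 0 (median -0.78, all genes -0.03), beside 21.9% and 21.6% of all genes. Without replicate 1 of the chondrocyte cultures at 0.5% O2, or replicate 4 of the proliferating cultures at 21% O2, 1 gene was called higher. Hmgcs1, an early enzyme of cholesterol synthesis, read 328, 327, 335 and 389 and 174, 227, 247 and 247 CPM at 21% O2, and 431, 426 and 449 and 142, 132 and 125 CPM at 0.5% O2, proliferating first. The proliferating level was higher and the chondrocyte level lower at 0.5% O2 (interaction -1.09, SE 0.14, adjusted p = 9.57e-06). Scd1, a fatty acid desaturase, had the lowest interaction, -2.19 (adjusted p = 2.70e-06). Sqle, whose enzyme uses oxygen to make squalene epoxide, was not called (-0.30, adjusted p = 0.0973), nor was Fasn, the fatty acid synthase gene and the highest (0.23, adjusted p = 0.0848). Sqle was called without replicate 1 of the chondrocyte cultures at 21% O2 (0.00776), and Fasn without either library named above (0.0406 and 0.0303).

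Of 20 interferon response genes tested, 12 were called lower and 1, Ifit2, higher, beside 21.9% and 21.6% of all genes. With at least 10 counts in every library the 12 became 7. In proliferating cultures 14 were called higher at 0.5% O2 and 1 lower, beside 28.7% and 28.5% of all genes. In chondrocyte cultures 1 was called higher and 5 lower, beside 11.9% and 14%. Isg15, a ubiquitin-like protein gene, read 5.39, 5.902, 4.47 and 2.25 and 0.0976, 0.429, 0.492 and 0.308 CPM at 21% O2, and 9.36, 7.92 and 7.18 and 0.169, 0 and 0.0692 CPM at 0.5% O2, proliferating first. The proliferating libraries were higher and the chondrocyte libraries near 0 at 0.5% O2 (interaction -2.73, SE 0.81, adjusted p = 0.0113), and limma-voom did not call it (adjusted p = 0.0706). Ifit3 had 3 counts in all 3 chondrocyte libraries at 0.5% O2 together, against 69 in the 4 at 21% O2. At that depth single genes of the list are weakly measured.

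All 32 cell cycle genes fell at 21% O2, and at 0.5% O2 29 fell and 3 rose, beside falls of 37.5% and 33.2% of all genes. The interaction was called higher for 9 and lower for 2 (median 0.04), beside 21.6% and 21.9% of all genes. The 2 became 9 without replicate 4 of the chondrocyte cultures at 21% O2, and 1 without replicate 3 of either culture at 0.5% O2. The 2 also became 4 in DESeq2 and in a fit with a replicate block, and 1 in the fit of all 28 libraries. The 9 higher ones were Mcm2, Mcm4, Mcm5, Mcm7, Pcna, Rrm2, Cdt1, Ccne1 and Ccne2, and the 2 lower ones were Mki67 and Ccnb2. Rrm2, a ribonucleotide reductase subunit, read 166, 171, 169 and 140.3 and 135, 132, 152 and 98.5 CPM at 21% O2, and 47.5, 45.9 and 40.04 and 113, 116 and 108 CPM at 0.5% O2, proliferating first. Its proliferating libraries at 0.5% O2 were the lowest, and its change turned from -0.32 to 1.33 (interaction 1.66, SE 0.16, adjusted p = 9.66e-07). Ccne1, cyclin E1, had the highest interaction (1.67, adjusted p = 4.36e-05), that of Mcm2 was 0.78 (adjusted p = 3.97e-05), and Mki67 had the lowest (-0.82, adjusted p = 0.00619). Within either culture the list stood lower at 0.5% O2, with 25 of 32 genes called in proliferating and 27 of 32 in chondrocyte cultures, beside 28.5% and 14% of all genes.

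Imprinted growth genes, to which H19 and Mest belong, gave 10 lower and 1 higher calls among 16 tested (median -0.60), beside 21.9% and 21.6% of all genes. Igf2r, the receptor that clears IGF2, lost its rise (1.38 and 0.049, interaction -1.33, adjusted p = 2.77e-08), and Peg3 gained a fall (interaction -1.34, adjusted p = 7.63e-05). Peg10 was the gene called higher (1.08, adjusted p = 7.09e-04). Igf2, the growth factor gene beside H19, had 1 count in all 14 libraries together.

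Neural crest markers gave 6 lower and 2 higher calls among 14 tested, beside 21.9% and 21.6% of all genes. Twist1 was called higher by 0.49 (adjusted p = 0.02), which missed the threshold without replicate 2 of the chondrocyte or replicate 3 of the proliferating cultures at 0.5% O2 (0.0561 and 0.0577). Among the 13 with counts in every group, Tfap2a was the highest (0.53, adjusted p = 0.00826) and Msx1 the lowest (-1.58, adjusted p = 2.23e-04). Markers of other cell types were also measured. Of 9 smooth muscle genes, 6 were tested and all rose at both levels, beside 36.2% and 33.6% of all genes. For these 6 the interaction was called lower in 1 and higher in 0, beside 21.9% and 21.6%. Acta2, smooth muscle actin, had an interaction of 0.13 (adjusted p = 0.482), Smtn, smoothelin, one of -1.81 (adjusted p = 5.12e-09), and Cnn1, calponin, one of 0.33 (adjusted p = 0.828). The summed level of that list was 2214 to 2691 CPM in chondrocyte cultures at 21% O2 and 2008 to 2399 CPM at 0.5% O2, against 97.8 to 107.2 CPM and 202.0 to 205.8 CPM in proliferating cultures.

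The 9 adipocyte markers summed to 15.7 to 23.1 CPM and 15.9 to 24.65 CPM in those groups, with Adipoq and Cidec at 0 counts throughout. Fabp4 lost its rise there (interaction -3.91, adjusted p = 1.01e-04), and Lpl was not called (0.60, adjusted p = 0.710). Of 7 glia and neuron genes 4 were tested, and S100b, which cartilage also expresses, had an interaction of -6.32 (adjusted p = 4.68e-06), with 0.813, 2.02, 3.03 and 1.27 CPM in chondrocyte libraries at 21% O2 and 0.101, 0.0415 and 0.138 CPM at 0.5% O2. Tubb3 was not called (-0.81, adjusted p = 0.123), but it was without replicate 4 of the chondrocyte cultures at 21% O2 (0.0436), and Sox10 was at 0 counts. Of 5 tendon genes, Mkx was called lower (-1.10, adjusted p = 0.00373) and Tnmd was at 0 counts. The blood marker Cd68 was called lower (-1.57, adjusted p = 0.0191), though not without replicate 3 of the chondrocyte cultures at 0.5% O2 (0.0635) or replicate 1 of those at 21% O2 (0.0613), and the endothelial Pecam1 was not called (0.047, adjusted p = 0.966), each the only member of its list tested. Summed blood markers reached at most 6.45 CPM, and endothelial markers 1.73 to 3.22 CPM in chondrocyte libraries at 21% O2 and 5.54 to 8.03 CPM at 0.5% O2. The part of these markers in the results was not tested.

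To see whether the oxygen response of chondrocyte cultures differed from that of another differentiated culture, it was compared with that of osteoblast cultures, kept 10 days in osteogenic medium with 100 ng/ml BMP-2 and 0.1 µM dexamethasone (n = 4 at 21% O2 and n = 3 at 0.5% O2). The fit held the 14 chondrocyte and osteoblast libraries, tested 15199 genes and called 2689 as higher (17.7%) and 3061 as lower (20.1%) in chondrocyte cultures. Replicate 4 of the osteoblast cultures at 21% O2 stood apart from the other 3, with Col2a1 at 35.3, 37.8, 43.2 and 768 CPM in replicates 1 to 4 and 69.8, 70.6 and 71.8 CPM in the libraries at 0.5% O2. Its label could not be checked further, so the differences below are given with and without it.

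H19 read 28.1, 26.9, 28.8 and 312 CPM in osteoblast libraries at 21% O2, replicate 4 being the highest, and 368, 307 and 355 CPM at 0.5% O2. Apart from replicate 4, the osteoblast libraries were higher at 0.5% O2, while the chondrocyte libraries were lower. The responses differed by -6.66 (SE 1.24, adjusted p = 0.00179), and by -8.47 without that replicate (adjusted p = 4.17e-11). Notum read 1.38, 1.68, 2.05 and 22.3 CPM at 21% O2 and 141, 163 and 142 CPM at 0.5% O2 in osteoblast libraries. Replicate 4 was again the highest at 21% O2. The difference of the responses, -1.20, was not called (SE 1.14, adjusted p = 0.438), though limma-voom called it at -2.22 (adjusted p = 0.0463). Without replicate 4 it was called at -3.22 (adjusted p = 4.73e-05), as the smaller response in chondrocyte cultures.

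For Itm2a the responses differed by -2.78 (adjusted p = 3.32e-09), or -2.73 without replicate 4. The response was also lower in chondrocyte cultures for Mest (difference -3.59, adjusted p = 1.97e-04, or -3.90 without replicate 4), and for Pi15 (-3.24, adjusted p = 8.77e-04, or -3.79 without it). For Sfrp1 the difference was not called, at 0.28 (SE 0.46, adjusted p = 0.671), or 0.39 without replicate 4 (adjusted p = 0.577). Of the 34 hypoxia response genes, 27 had a response called lower in chondrocyte than in osteoblast cultures and 0 one called higher, and of the 23 sterol and fatty acid genes 18 were called higher and 0 lower, beside 20.1% lower and 17.7% higher over all genes. Without replicate 4 these were 27 lower and 1 higher of 34, and 20 higher and 0 lower of 23, beside 23.7% lower and 20.9% higher over all genes. Other lists also had lower responses. With all libraries, 26 of 32 cell cycle, 11 of 14 glucocorticoid and 9 of 11 hypertrophic genes were called lower, and 0 higher. Of 14 osteoblast genes 9 were called lower and 1 higher. Of the 13 cartilage matrix genes, 4 were called lower and 1 higher with all libraries. Without replicate 4, 10 of these 13 were called lower and 1 higher.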

How the data were processed

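The deposited values used were raw read counts per gene for O9-1 cultures, from polyA RNA and a stranded kit. The authors aligned reads with HISAT2 2.0.5 to mm10, assembled with StringTie 1.3.3b and counted with featureCounts 1.5.0-p3, per the submitters' processing notes. Whether counting used strand is not given in the sources used here, so overlapping and antisense genes are uncertain. The authors' 10 comparison tables, with 70 columns of normalised values, were not used.

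The 14 proliferating and chondrocyte libraries were fitted together with edgeR 4.0.16 in R 4.3.3 (TMM scaling, robust quasi-likelihood, expression filter by group with a count minimum of 10 and a total of 15), which kept 15310 of 54429 genes. P-values were Benjamini-Hochberg adjusted over all genes tested, with a threshold of 0.05. Standard errors are the log2 difference over the square root of F. The chondrocyte and osteoblast libraries were fitted likewise. Scripts were tested on simulated data first. Coordinates and gene names came from GENCODE M21 (54314 of 54429 identifiers had a symbol), and promoters from RefSeq.

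Named genes had a size of at least 1, a mean of at least 10 counts per library in every group and an established symbol. The 3 largest interactions were taken in each lost, gained and reversed class and the 2 largest in each other class, with H19, Notum, and the extreme and best known members of each list. List extremes were taken among tested members with counts in every group. Members, lists and tests were chosen with earlier results of these data known. Alternatives were RLE factors, library size alone, other count filters, limma-voom (limma 3.58.1), DESeq2 1.42.0, all 28 libraries, other size limits, a replicate block and each library left out. Some list members are counted but not reported by name here.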

Additional observations from a re-analysis of the deposited data

Results flagged for a closer look

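The contrast itself is a difference between groups, with 6654 genes whose chondrocyte change differed between oxygen levels. The oxygen response differed between chondrocyte and osteoblast cultures for 5750 genes. In groups of 4 libraries, 21 of 196 gene groups checked had 1 library far from the other 3, where chance gives about 1 in 20.

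Of these, 17 were replicate 4 of the proliferating cultures at 21% O2. Its levels were above the other 3 for Aldoc (7.72 CPM), Adra2a (5.84 CPM), Col11a1 (7.03 CPM), Sox9 (123.6 CPM), Phex (29.6 CPM), Ndrg1 (57.6 CPM), Lox (61.6 CPM), Igf2r (159.2 CPM), Hmgcs1 (389.1 CPM), Sqle (338.6 CPM) and Tfap2a (39.9 CPM). They were below the other 3 for S100a7a (14.8 CPM), Id1 (9.35 CPM), Smad7 (13.5 CPM), Rrm2 (140.3 CPM), Tubb3 (3.01 CPM) and Ccnd1 (1112 CPM). Replicate 1 of the chondrocyte cultures at 21% O2 stood apart for Egln3 (66.3 CPM, below), Gapdh (54.3 CPM, above) and Ifit3 (0.553 CPM, below), and replicate 4 for Trib3 (182.3 CPM, above).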

How the results depend on the processing

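Of 2321 values recomputed for 107 genes, 2241 kept their direction and their side of the threshold, 39 lost the call, 27 gained it and 14 changed sign. With at least 10 counts in every library, genes with a size of at least 1 numbered 3071 for the change at 0.5% O2, 3509 for that at 21% O2, 432 and 1784 for the oxygen difference in chondrocyte and proliferating cultures; 102 falls and 42 rises were enlarged, 20 falls and 190 rises reduced, 1 turned from fall to rise and 34 from rise to fall. With a size limit of 0.5, 4808 genes depended on oxygen; 446 falls and 239 rises were enlarged, 511 falls and 486 rises gained, 830 falls lost, 306 falls and 662 rises reduced, 81 turned from fall to rise and 190 from rise to fall. With a limit of 2 these were 750 genes, 37 and 15 enlarged, 143 and 24 gained, 22 falls and 230 rises lost, 7 and 117 reduced, and 0 and 9 turned. Leaving out each library gave 6021 to 6929 genes called in the interaction, 2031 to 2359 with a size of at least 1, and 2 to 8 turned from fall to rise; lost falls ran from 169 to 285. The response against osteoblast cultures was called for 4871 to 6725 genes. Library size alone moved the median change to -0.34 at 21% O2 and -0.35 at 0.5% O2. The share of calls that were higher went from 49.1% to 35.3% for the former change and from 50.3% to 32.0% for the latter. In chondrocyte cultures between oxygen levels it went from 45.9% to 31.6%, and in the interaction from 49.7% to 48.1%. The interaction share moved more with other settings, to 45.4% with RLE factors, 44.7% in DESeq2 and 54.4% in the fit of all 28 libraries. No value that changed sign was called: Pecam1 reached -0.030 in limma-voom, and with a library left out Cnn1 ran from -0.52 to 1.33, Col10a1 from -2.38 to 2.48, Col11a1 from -0.71 (called, sign kept) to 0.063, Fmod from -2.79 to 1.72, Lpl from -0.57 to 2.37, Pecam1 from -0.23 to 0.26, Sox6 from -4.12 to 0.24, and Sfrp1 against osteoblast cultures from -0.14 to 0.64. Same-numbered replicates did not deviate together (correlations -0.128 to 0.112), and the replicate block gave 6745 genes for the oxygen dependence of the chondrocyte change, genes called, and 2146 with a size of at least 1. The replicate block also called Comp (adjusted p = 0.0415), Fasn (0.0413), Fgfr3 (0.0498), Scx (0.0212), Sqle (0.0411) and Tubb3 (0.00280), did not call Sox9 (0.0889), and gave 5 cartilage matrix genes called lower. DESeq2, which on simulated data called unchanged genes beyond its nominal level, also called Chrdl1, Col2a1, Col9a1, Comp, Fgfr3, Ldha and Sqle. Those simulated data held no gene near 0 in proliferating libraries alone, so they do not decide the calls of Col2a1, Col9a1 or Comp. The cause of these shifts was not tested.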
